A study of Mus musculus with 12 samples.

Results

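The comparison described here set the 3 colistin + 7-HC libraries against the 3 control libraries, 6 of the 12 libraries of the study. Its genes were those at 1 FPKM (fragments per kilobase of transcript scaled to library size, a level per length) or more in at least 3 of the 6 libraries, which left 10373 of the 22899 genes listed. Colistin is a polymyxin antibiotic whose use against Gram-negative bacteria is limited by injury to the kidney, and 7-HC (7-hydroxycoumarin) is a plant coumarin that was given with it for protection. The question for this comparison was which genes were still changed when both compounds were given. All mice were of the Kunming strain, recorded as female and aged 6 to 8 weeks, and all were treated for 7 days. Control mice received saline, 7-HC mice 50 mg/kg/day of 7-HC, colistin mice 15 mg/kg/day of colistin, and colistin + 7-HC mice both at these doses, with 7-HC given 2 h before colistin. Mice were killed for tissue 12 h after dosing ended. As 7-HC was given in DMSO and control mice received saline, the effects of the compounds and of the vehicle cannot be told apart in this comparison. Per the methods, tissue for sequencing was taken from 3 mice of each group. Neither the methods nor the labels say that each library came from its own mouse. The p-values therefore measure the spread between libraries, which may be technical.

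The libraries are labelled kidney, but the markers go against this label. The summed level of 13 hepatocyte markers was 83991 to 94535 FPKM in control and 52201 to 60286 FPKM in colistin + 7-HC, whereas the proximal tubule markers, 8 of 10 of them with values, summed to 2.82 to 5.84 FPKM and 5.30 to 10.7 FPKM. Markers of the loop of Henle and distal tubule summed to at most 0.42 FPKM and those of the collecting duct to at most 0.30 FPKM in any of the 6 libraries, and Kap, Slc5a2, Slc12a1 and Aqp2 held no value. Of 4 Y-linked genes, Ddx3y stood at 9.22, 8.23 and 8.58 FPKM in the control libraries and at 8.03, 8.42 and 7.62 FPKM in the colistin + 7-HC libraries of mice recorded as female, and none of the 4 passed the test. The genes below are therefore described as measured, and the organ is called by its label only. Values summed to 517984 to 597354 FPKM over the 12 libraries. Pearson's r of log2(FPKM + 0.5) was 0.982 to 0.984 within colistin + 7-HC, 0.9753 to 0.983 within control and 0.913 to 0.936 between them.

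In inflammation the liver turns to making acute-phase proteins. Interleukin-1 and interleukin-6 act on hepatocytes through NF-kB, C/EBP factors and STAT3, and hepatocytes then secrete serum amyloid A, haptoglobin, fibrinogen and related proteins, while transcripts for albumin, drug metabolism and bile acid synthesis commonly decline. A secretory load of this kind also engages the unfolded protein response, in which ATF6 and XBP1 raise the chaperones of the endoplasmic reticulum (ER) and ATF4 raises genes of amino acid supply.

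Compared to control group, 2746 genes (26.5% of the genes tested) differed in the colistin + 7-HC group at an adjusted p under 0.05 by limma, with 1105 higher (10.7%) and 1641 lower (15.8%). The words rose and fell are kept below for genes that passed this test. Of these genes, 391 rose (3.77%) and 477 fell (4.6%) at least 2-fold, 125 rose (1.21%) and 99 fell (0.954%) at least 4-fold, and 21 rose and 9 fell at least 16-fold. In all 2746, the 3 colistin + 7-HC libraries lay on the same side of the control mean, and in 2723 (26.3% of the genes tested) the groups did not overlap. Both counts follow largely from selecting genes by a test on the same values. Over all tested genes, called or not, the groups did not overlap in 5039 (48.6%). At a fold change of 2 or more and an adjusted p of 0.001 or less, 379 genes passed (3.65%), with 201 higher (1.94%) and 178 lower (1.72%). The median log2 fold change over all tested genes was -0.06. After scaling the libraries by median ratios, 2699 genes passed and 49.6% of them were higher, against 40.2% without scaling. Without colistin + 7-HC replicate 2, 1748 genes passed.

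**Figure D1:**
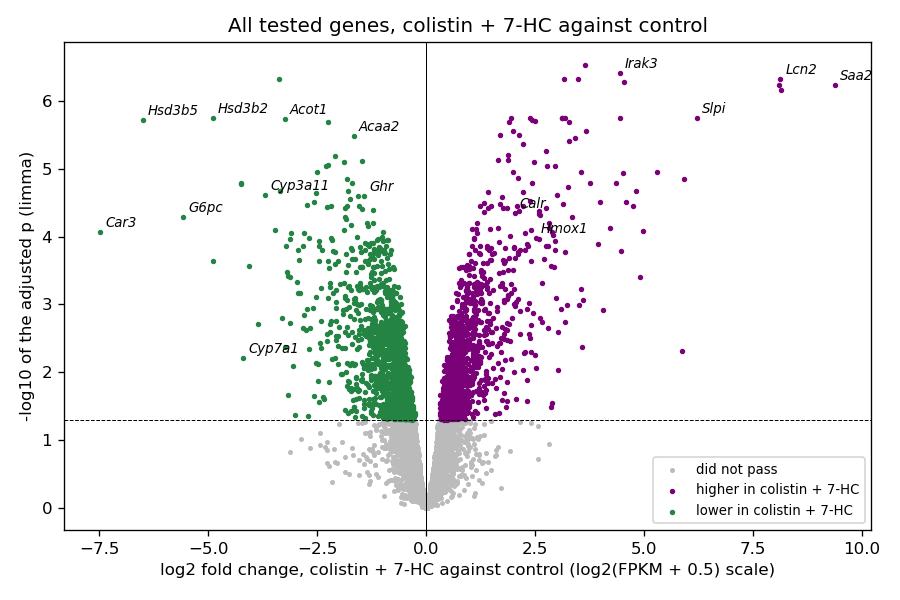
Each point is 1 of the 10373 tested genes, with its log2 fold change for colistin + 7-HC against control on the x axis and -log10 of limma's adjusted p on the y axis; the dashed line marks an adjusted p of 0.05. Rises reached a log2 fold change of 9.37 (Saa2) and falls one of -7.48 (Car3).

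The largest rises were of secreted acute-phase proteins. Saa2, which encodes serum amyloid A2, an apolipoprotein of inflammatory plasma, stood at 109.5, 32.9 and 19.1 FPKM in the control libraries and at 29113, 31031 and 22943 FPKM in the colistin + 7-HC libraries (log2 fold change 9.37, SE 0.49, adjusted p = 5.80e-07 by limma). It was the most abundant gene in 2 of the 3 colistin + 7-HC libraries, while albumin held that place in the other and in all control libraries. Its neighbour Saa1 stood at 171, 84.9 and 34.4 FPKM and 23382, 26811 and 18079.7 FPKM (log2 fold change 8.13, SE 0.44, adjusted p = 6.81e-07 by limma). Saa1 and Saa2 are near-identical copies, so reads may be split between them in error, but both were low in every control library and high in every colistin + 7-HC library. Saa3, the third of this family, rose from 15.8, 8.29 and 5.87 FPKM to 3734, 3567 and 1369.7 FPKM (log2 fold change 8.09, SE 0.42, adjusted p = 5.80e-07 by limma), and colistin + 7-HC replicate 3 was the lowest of its group.

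Other leading rises were of antimicrobial and anti-inflammatory proteins. Lcn2 (chr2:32384637-32387739 in GRCm38.p6, from RefSeq), which encodes lipocalin 2 (NGAL), a binder of bacterial siderophores and a marker of kidney injury, stood at 49.3, 41.7 and 14.2 FPKM in control and at 9848, 8674 and 7801 FPKM in colistin + 7-HC (log2 fold change 8.12, SE 0.40, adjusted p = 4.82e-07 by limma). Slpi, a secreted inhibitor of leukocyte proteases, stood at 2.59, 0.89 and 0.82 FPKM and 172, 107 and 125 FPKM (log2 fold change 6.21, SE 0.38, adjusted p = 1.77e-06 by limma). In neither gene did the groups overlap, but the rule that chose the largest rises asked for this. Orm2, which encodes the plasma glycoprotein orosomucoid 2, rose with a log2 fold change of 5.90 (SE 0.49), and Il1rn, which encodes the antagonist of the interleukin-1 receptor, with one of 4.74 (SE 0.45). Cd14, the lipopolysaccharide co-receptor, stood at 2.08, 1.74 and 1.77 FPKM and 86.4, 73.3 and 45.7 FPKM (log2 fold change 4.82, SE 0.42, adjusted p = 2.13e-05 by limma). Cxcl10, a chemokine induced by interferons, was the most uneven of these, at 315, 63.8 and 92 FPKM against 6.24, 2.75 and 2.65 FPKM in control, with colistin + 7-HC replicate 1 far above the other 2 libraries. Chil1, which encodes a chitinase-like protein, rose from at most 0.24 FPKM in control to at least 33.4 FPKM, yet with a large error (log2 fold change 5.88, SE 1.22, adjusted p = 0.00483 by limma). The error is pooled over all 4 groups. Chil1 passed the filter only through the colistin + 7-HC group, which fixed in advance that its groups lay apart. Crybb3, known as a lens crystallin, rose by 5.28 on the log2 scale (SE 0.42).

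**Figure D2:**
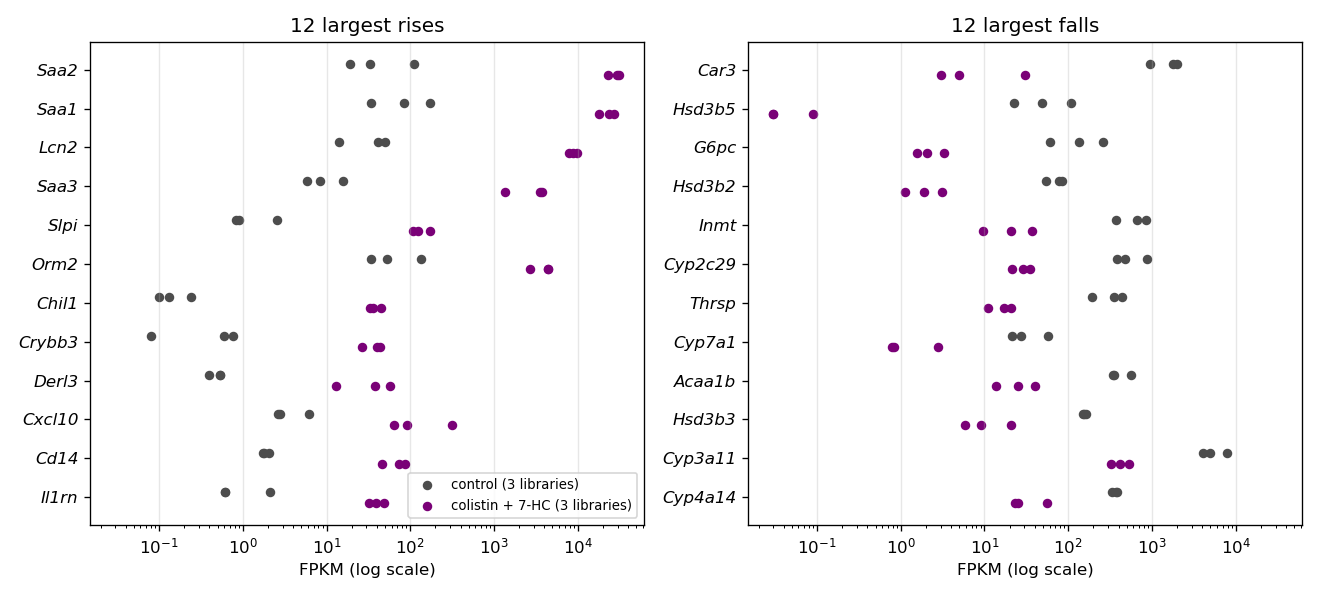
FPKM on a log axis in each of the 3 control and 3 colistin + 7-HC libraries for the 12 genes that rose most and the 12 that fell most. The rule that chose them asked that the groups not overlap; for Saa2 the gap runs from 109.5 FPKM in the highest control library to 22943 FPKM in the lowest colistin + 7-HC library.

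The promoters of these genes are shown because several share a short C/EBP motif. Promoter sequences (250 bases before to 50 bases after the start of transcription, from RefSeq, build GRCm38.p6) were found for 11 of the 12 genes with the largest rises. The motif, spelled TTNNGNAAT with N for any base and searched on both strands, was present in 7 of their 13 promoters (53.8%), those of Cxcl10, Il1rn, Orm2, Saa1, Saa2 and Slpi. The share was 7.46% of the 10690 promoters of tested genes and 11.5% of all 32851 promoters. It does not share a site on the same strand with the ATF4 motif used below, which differs from it at the second letter. The longer NF-kB motif GGGNNNTTCC, also on both strands, was present in 5 of the 13 promoters (38.5%), of Crybb3, Cxcl10 and Il1rn, against 6.16% of promoters of tested genes and 5.56% of all promoters. The shorter NF-kB motif GGGNNTTCC was present in 3 of the 13 (23.1%), against 7.41% and 5.82%, and the STAT motif TTCNNNGAA in 0 of the 13, against 6.74% and 8.3%. Of 10 promoters of the 12 genes with the largest falls, 1 held the C/EBP motif, that of Cyp2c29, and 0 held either NF-kB motif or the STAT motif. The promoters of Saa1 (chr7:46742931-46743230, minus strand), Saa2 (chr7:46751583-46751882, plus strand) and Orm2 (chr4:63362199-63362498, plus strand) are printed 5′ to 3′ with the C/EBP match in capitals, here read on the opposite strand. They were picked after the matches were seen, and a match is a description of letters, not of binding.
Saa1: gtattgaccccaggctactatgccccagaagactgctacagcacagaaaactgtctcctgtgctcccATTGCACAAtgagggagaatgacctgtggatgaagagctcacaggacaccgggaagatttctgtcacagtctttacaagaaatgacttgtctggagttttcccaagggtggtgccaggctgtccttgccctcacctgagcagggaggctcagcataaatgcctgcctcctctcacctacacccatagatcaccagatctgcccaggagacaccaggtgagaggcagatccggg
Saa2: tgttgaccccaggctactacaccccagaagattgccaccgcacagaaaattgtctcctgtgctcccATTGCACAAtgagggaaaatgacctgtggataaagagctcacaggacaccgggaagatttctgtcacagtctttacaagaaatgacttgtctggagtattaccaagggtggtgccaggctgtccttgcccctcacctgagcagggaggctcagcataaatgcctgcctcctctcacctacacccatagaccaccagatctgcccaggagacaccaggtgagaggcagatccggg
Orm2: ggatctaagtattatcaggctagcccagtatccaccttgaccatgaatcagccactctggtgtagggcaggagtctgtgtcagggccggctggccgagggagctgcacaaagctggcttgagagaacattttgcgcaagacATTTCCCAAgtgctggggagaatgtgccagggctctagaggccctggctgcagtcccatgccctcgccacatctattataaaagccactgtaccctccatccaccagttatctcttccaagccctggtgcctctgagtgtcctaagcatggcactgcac
In Saa1 and Saa2 the capitals are the same 9 letters.

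Of the 25 tested acute-phase genes, 23 rose and 0 fell, where 10.7% of all tested genes rose. The median log2 fold change of the list was 2.81, against -0.06 over all tested genes. The summed level of the list's 26 genes was 17736 to 19529 FPKM in control and 142586 to 179163 FPKM in colistin + 7-HC. Hpx, which encodes hemopexin, the plasma carrier of heme, stood at 2225, 2229 and 2072 FPKM in control and at 19943, 20594 and 17618 FPKM in colistin + 7-HC (log2 fold change 3.15, SE 0.16, adjusted p = 4.82e-07 by limma). The 3 fibrinogen chains Fga, Fgb and Fgg rose together by 2.05, 2.11 and 2.01 on the log2 scale. Hamp, which encodes the iron hormone hepcidin, and Serpina3m, a serine protease inhibitor, did not pass, with log2 fold changes of 0.51 and 0.03.

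Lists of plasma protein systems held genes that rose and genes that fell, where 10.7% of all tested genes rose and 15.8% fell. In the complement list 7 of 20 rose and 4 fell, and C3, the central component, stood at 2288, 1906 and 2413 FPKM in control and 7439, 7529 and 6399 FPKM in colistin + 7-HC (log2 fold change 1.70, SE 0.16, adjusted p = 3.28e-05 by limma). Cfb, complement factor B of the alternative pathway, rose by 1.31 on the log2 scale, whereas Mbl2, a mannose-binding lectin that starts the lectin pathway, fell from 338, 257 and 294 FPKM to 91.5, 94.98 and 109 FPKM (log2 fold change -1.58, SE 0.25, adjusted p = 0.000988 by limma). The 4 complement genes that fell were 1 without control replicate 2 or colistin + 7-HC replicate 3, and 2 without control replicate 1 or colistin + 7-HC replicate 2. In the coagulation list 10 of 24 rose and 4 fell. The falls of the complement and coagulation lists lay near the share of all tested genes. Among 14 plasma proteins known to decline in inflammation, 6 fell and 3 rose, with a median of -0.47. Ttr, which encodes transthyretin, the carrier of thyroid hormone and retinol-binding protein, stood at 5547, 5666 and 5694 FPKM and 2172, 1512 and 2287 FPKM (log2 fold change -1.52, SE 0.21, adjusted p = 0.000482 by limma). Serpina6, which encodes corticosteroid-binding globulin, fell further (log2 fold change -2.53, SE 0.56, adjusted p = 0.00727 by limma), and Fetub, a member of the fetuin family, went the other way (log2 fold change 1.10, SE 0.15, adjusted p = 0.000492 by limma). The 3 rises were 1 when any of the 6 libraries was left out.

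Sensors and signalling genes of innate immunity rose. In the endotoxin sensing list 7 of 10 tested genes rose and 0 fell (median 0.89), and 5 to 8 rose over the alternative settings. Irak3, an inhibitor of Toll-like receptor signalling, stood at 0.28, 0.51 and 0.37 FPKM in control and at 23.3, 17.9 and 15.7 FPKM in colistin + 7-HC (log2 fold change 4.44, SE 0.20, adjusted p = 3.86e-07 by limma). Tlr2, a receptor for bacterial lipoproteins, stood at 1.37, 1.04 and 1 FPKM and 11.2, 6.09 and 7.92 FPKM (log2 fold change 2.41, SE 0.30, adjusted p = 0.000232 by limma). In both, the lowest colistin + 7-HC library was above the highest control library. For Irak3 this was fixed by the filter, which it passed only through the colistin + 7-HC group. Tlr4, the endotoxin receptor itself, was under the filter. Of 13 NF-kB subunits and targets 9 rose and 0 fell (median 1.24), and 6 to 10 rose over the alternative settings. Relb, a subunit of the alternative NF-kB pathway, stood at 0.87, 0.9 and 0.82 FPKM and 8.29, 6.61 and 6.58 FPKM (log2 fold change 2.48, SE 0.16, adjusted p = 1.96e-06 by limma). Relb too passed the filter only through the colistin + 7-HC group, which fixed in advance that its groups lay apart. Tnfaip3, which encodes the NF-kB inhibitor A20, rose by 2.59 on the log2 scale (SE 0.25), and Icam1, an adhesion molecule for leukocytes, by 2.58 (SE 0.25). The subunits Nfkb1 and Rela did not pass, at 0.28 and 0.31. The motif GGGNNNTTCC was present in 7 of 13 promoters of this list (53.8%), against 6.16% of promoters of tested genes and 5.56% of all promoters. These belonged to 4 of the 10 genes with a promoter sequence, Nfkb2, Nfkbia, Nfkbie and Tnfaip3, of which Nfkbia did not pass (0.41). The shorter motif GGGNNTTCC was present in 3 of the 13 (23.1%), against 7.41% and 5.82%. The list was drawn up with known NF-kB targets, so this is a check of the list rather than a result of the treatment.

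In the IL-6 and STAT3 list 7 of 17 rose and 3 fell, where 10.7% of all tested genes rose and 15.8% fell. The falls of this list lay near the share of all tested genes. Socs3, the feedback inhibitor of this pathway, stood at 4.12, 5.15 and 4.10 FPKM in control and at 19.1, 46.98 and 23.9 FPKM in colistin + 7-HC (log2 fold change 2.52, SE 0.58, adjusted p = 0.00852 by limma), with replicate 2 the highest. Lifr, the receptor for leukemia inhibitory factor, fell from 62.2, 52.6 and 32.4 FPKM to 13.7, 12.98 and 11.7 FPKM (log2 fold change -1.85, SE 0.22, adjusted p = 0.00018 by limma). Without colistin + 7-HC replicate 2, 4 genes of the list rose. The 3 falls were 1 without control replicate 2 or colistin + 7-HC replicate 1, and 2 without any other of the 6 libraries. Of 19 interferon-stimulated genes 6 rose and 1 fell, and the 6 were 2 without control replicate 3, colistin + 7-HC replicate 1 or colistin + 7-HC replicate 3. Without control replicate 3, 5 of the 19 fell. Ifit1, which binds viral RNA, stood at 9.85, 7.68 and 1.12 FPKM in control and at 67.1, 21.7 and 36.5 FPKM in colistin + 7-HC (log2 fold change 2.89, SE 0.86, adjusted p = 0.0283 by limma), and its call was lost without any of these 3 libraries.

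Markers of blood and immune cells gave a mixed picture. S100a9 and S100a8, calcium-binding proteins of neutrophils, rose by 3.18 and 2.94 on the log2 scale, from means of 0.957 ± 0.603 and 0.35 ± 0.377 FPKM (SD, n = 3) to 12.7 ± 5.31 and 5.74 ± 1.46 FPKM. Retnlg, another neutrophil gene, rose as well, and the 13 markers of the list summed to 8.73 to 12.3 FPKM in control and 22.0 to 38.2 FPKM in colistin + 7-HC. The defining markers Ly6g and Cxcr2 did not pass (-0.20 and -0.13), and the other 7, among them Mpo and Elane, were under the filter, which the 3 risers passed only through the colistin + 7-HC group, so that 0 rose when 1 FPKM was asked of all 6 libraries. Of 13 tested Kupffer cell and macrophage markers 1 rose and 1 fell. Marco, a scavenger receptor, rose from 3.57, 4.86 and 4.95 FPKM to 36.8, 31.7 and 33.4 FPKM (log2 fold change 2.81, SE 0.29, adjusted p = 6.25e-05 by limma), and Clec4f, a lectin of Kupffer cells, fell (log2 fold change -1.47, SE 0.49, adjusted p = 0.0444 by limma), a call that was lost when any of the 6 libraries was left out. Erythroid markers summed to 529 to 809.9 FPKM in control and 109.6 to 164.9 FPKM in colistin + 7-HC, and the alpha-globin genes Hba-a1 and Hba-a2 fell by 2.41 and 2.67 on the log2 scale. No marker of T, NK, B or plasma cells reached the filter. In bulk tissue fewer cells of a type and less RNA per cell cannot be told apart, and the part of these cells in the other results was not tested.

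Genes for protein folding in the ER rose as a group: 18 of 25 rose and 1 fell, with a median log2 fold change of 0.99. Calr, which encodes the lectin chaperone calreticulin, stood at 268, 299.5 and 239.9 FPKM in control and at 939.8, 1184 and 1182 FPKM in colistin + 7-HC (log2 fold change 2.03, SE 0.20, adjusted p = 4.43e-05 by limma). Sdf2l1, which works with the ER chaperone BiP, stood at 5.03, 6.96 and 6.81 FPKM and 31.1, 55.9 and 46.7 FPKM (log2 fold change 2.71, SE 0.33, adjusted p = 0.000213 by limma). Derl3, a part of ER-associated degradation, stood at 0.54, 0.54 and 0.4 FPKM and 12.9, 38.5 and 56.7 FPKM (log2 fold change 4.97, SE 0.53, adjusted p = 8.29e-05 by limma). In all 3 genes the groups were apart, which for Derl3 was fixed by the filter, passed only through the colistin + 7-HC group. In Derl3 and Sdf2l1 colistin + 7-HC replicate 1 was the lowest of its group. Pdia4, a protein disulfide isomerase, rose by 1.77 and Hspa5, which encodes BiP itself, by 0.92 (adjusted p = 0.026 by limma). The exception was Herpud1, which helps to assemble the degradation complex, and which fell by 1.14 on the log2 scale (adjusted p = 0.000112 by limma). The summed level of the 25 genes was 2017 to 2054 FPKM in control and 3649 to 4645 FPKM in colistin + 7-HC.

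The ER stress element, CCAAT and CCACG held 9 bases apart, is the DNA motif through which ATF6 is known to act, and promoters that hold it are shown for that reason. The whole element, spelled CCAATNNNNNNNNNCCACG and searched on both strands, was present in the promoters of 9 of the 21 genes of the ER list with a promoter sequence, namely Calr, Canx, Creld2, Derl3, Dnajc3, Hsp90b1, Hspa5, Pdia6 and Syvn1. It was present in 16 of the 10690 promoters of tested genes (0.15%) and in 39 of all 32851 promoters (0.119%). The list was drawn up with genes known to respond to ER stress, so this is a check of the list and of the sequences rather than a result of the treatment. Of the 9 genes, 8 rose in colistin + 7-HC, and Syvn1 did not pass, with a log2 fold change of 0.20. Its CCACG end alone, which overlaps the whole element, was present in 19 of the 22 promoters of the list (86.4%), in 46.7% of promoters of tested genes and in 32.8% of all promoters. The promoters of Hspa5 (chr2:34771840-34772139, plus strand), Calr (chr8:84846882-84847181, minus strand), Hsp90b1 (chr10:86705395-86705694, minus strand) and Derl3 (chr10:75893148-75893447, plus strand) are printed with the element in capitals.
Hspa5: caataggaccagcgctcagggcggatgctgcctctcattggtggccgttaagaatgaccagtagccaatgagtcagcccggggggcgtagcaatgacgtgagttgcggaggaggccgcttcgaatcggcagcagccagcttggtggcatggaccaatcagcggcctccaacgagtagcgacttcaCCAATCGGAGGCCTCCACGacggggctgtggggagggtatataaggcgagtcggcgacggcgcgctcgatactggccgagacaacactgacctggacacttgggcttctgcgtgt
Calr: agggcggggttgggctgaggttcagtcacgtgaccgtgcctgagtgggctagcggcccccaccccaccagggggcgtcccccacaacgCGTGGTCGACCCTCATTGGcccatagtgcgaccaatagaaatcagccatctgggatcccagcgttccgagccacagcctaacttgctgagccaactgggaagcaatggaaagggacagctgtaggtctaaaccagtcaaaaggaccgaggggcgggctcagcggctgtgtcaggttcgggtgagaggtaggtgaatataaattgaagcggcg
Hsp90b1: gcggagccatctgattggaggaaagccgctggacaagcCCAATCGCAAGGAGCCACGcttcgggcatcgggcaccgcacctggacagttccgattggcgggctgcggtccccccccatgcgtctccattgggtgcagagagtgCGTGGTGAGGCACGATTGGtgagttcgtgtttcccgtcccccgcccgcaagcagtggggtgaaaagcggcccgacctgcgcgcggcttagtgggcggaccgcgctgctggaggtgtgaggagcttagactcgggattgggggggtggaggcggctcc
Derl3: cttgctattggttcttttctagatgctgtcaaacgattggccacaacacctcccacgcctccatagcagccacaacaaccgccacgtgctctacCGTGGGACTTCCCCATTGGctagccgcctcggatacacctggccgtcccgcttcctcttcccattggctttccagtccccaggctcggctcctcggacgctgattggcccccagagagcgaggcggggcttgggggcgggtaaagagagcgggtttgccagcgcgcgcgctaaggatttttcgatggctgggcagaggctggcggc
The element lies 65 to 47 bases before the start in Hspa5, 162 to 144 bases before it in Calr and 156 to 138 bases before it in Derl3, and Hsp90b1 holds it 2 times, in opposite orientations. The log2 fold changes beside these sequences were 0.92 for Hspa5, 2.03 for Calr, 1.48 for Hsp90b1 and 4.97 for Derl3.

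Genes of amino acid supply also rose. Of 22 targets of ATF4 and the integrated stress response 11 rose and 1 fell (median 0.62), and 5 rose when 1 FPKM was asked of all 6 libraries. Asns, asparagine synthetase, stood at 1.78, 2.48 and 0.2 FPKM in control and at 31.97, 44.1 and 44.2 FPKM in colistin + 7-HC (log2 fold change 4.58, SE 0.42, adjusted p = 3.06e-05 by limma). Psat1 and Phgdh, enzymes of serine synthesis, stood at 10.9, 12.5 and 15.9 FPKM and 1.72, 8.29 and 7.38 FPKM in colistin + 7-HC, from at most 1.17 and 0.09 FPKM in control. Phgdh passed the filter only through the colistin + 7-HC group, which fixed in advance that its groups lay apart. Nupr1, a stress-induced nuclear protein, rose by 3.33 on the log2 scale (SE 0.33). Ddit3, which encodes CHOP, and Trib3, both classical genes of the pathway, did not pass, at -0.05 and 0.02. The motif TGATGNAAT, of ATF4 with C/EBP, was present in 1 of the list's 24 promoters, that of Nupr1, against 0.496% of promoters of tested genes and 0.965% of all promoters. Of 20 aminoacyl-tRNA synthetase genes 9 rose and 0 fell, led by Nars (log2 fold change 0.96, SE 0.20, adjusted p = 0.00459 by limma), and 5 rose without control replicate 2. Of 35 cytosolic ribosomal protein genes 2 passed, Rpl3 and Rpl5, both higher, with 1 passing without colistin + 7-HC replicate 1, 0 without any other of the 6 libraries, and 6 when only the 2 groups were fitted. The 35 had log2 fold changes of -0.04 to 0.47. Of 31 proteasome genes 2 passed, Psmd12 and Psmd1, both lower, with at most 1 of them passing when any of the 6 libraries was left out, and 0 passed after scaling by median ratios.

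Most genes of cholesterol synthesis rose, whereas most of fatty acid synthesis did not pass. Of 20 genes of cholesterol synthesis 12 rose and 1 fell, with a median of 1.18. Cyp51, the lanosterol demethylase, stood at 18.2, 14.6 and 7.29 FPKM in control and at 109, 73.9 and 80.9 FPKM in colistin + 7-HC (log2 fold change 2.75, SE 0.31, adjusted p = 0.000139 by limma). Sqle, squalene epoxidase, stood at 10.01, 7.07 and 3.38 FPKM and 44.8, 34.01 and 44.99 FPKM (log2 fold change 2.62, SE 0.44, adjusted p = 0.00158 by limma). Fdps, farnesyl diphosphate synthase, stood at 60.9, 53.2 and 34.98 FPKM and 280.2, 233 and 278 FPKM (log2 fold change 2.43, SE 0.20, adjusted p = 1.60e-05 by limma). Each of the 3 was higher in every colistin + 7-HC library than in any control library. The gene that fell was Ebp, a sterol isomerase (-0.53). The SREBP motif TCACNCCAC, searched on both strands, was present in 1 of 18 promoters of the list, that of Hmgcs1, and in 1.23% of promoters of tested genes and 1.24% of all promoters. In fatty acid synthesis 5 of 19 genes fell, 1 rose and 13 did not pass, where 15.8% of all tested genes fell. Among those that did not pass were Acly (-0.26), Acaca (-0.20), Fasn (-0.69) and Srebf1 (-0.66). Thrsp, a regulator of lipogenesis, fell from 441, 357 and 190 FPKM to 11.1, 17.2 and 20.9 FPKM (log2 fold change -4.25, SE 0.36, adjusted p = 1.60e-05 by limma), and Scd1, the stearoyl-CoA desaturase, from 1725, 1912 and 1308 FPKM to 338, 213 and 401 FPKM (log2 fold change -2.41, SE 0.35, adjusted p = 0.000571 by limma). The rise was of Acacb, an acetyl-CoA carboxylase, and it was lost when any of the 6 libraries was left out.

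**Figure D3:**
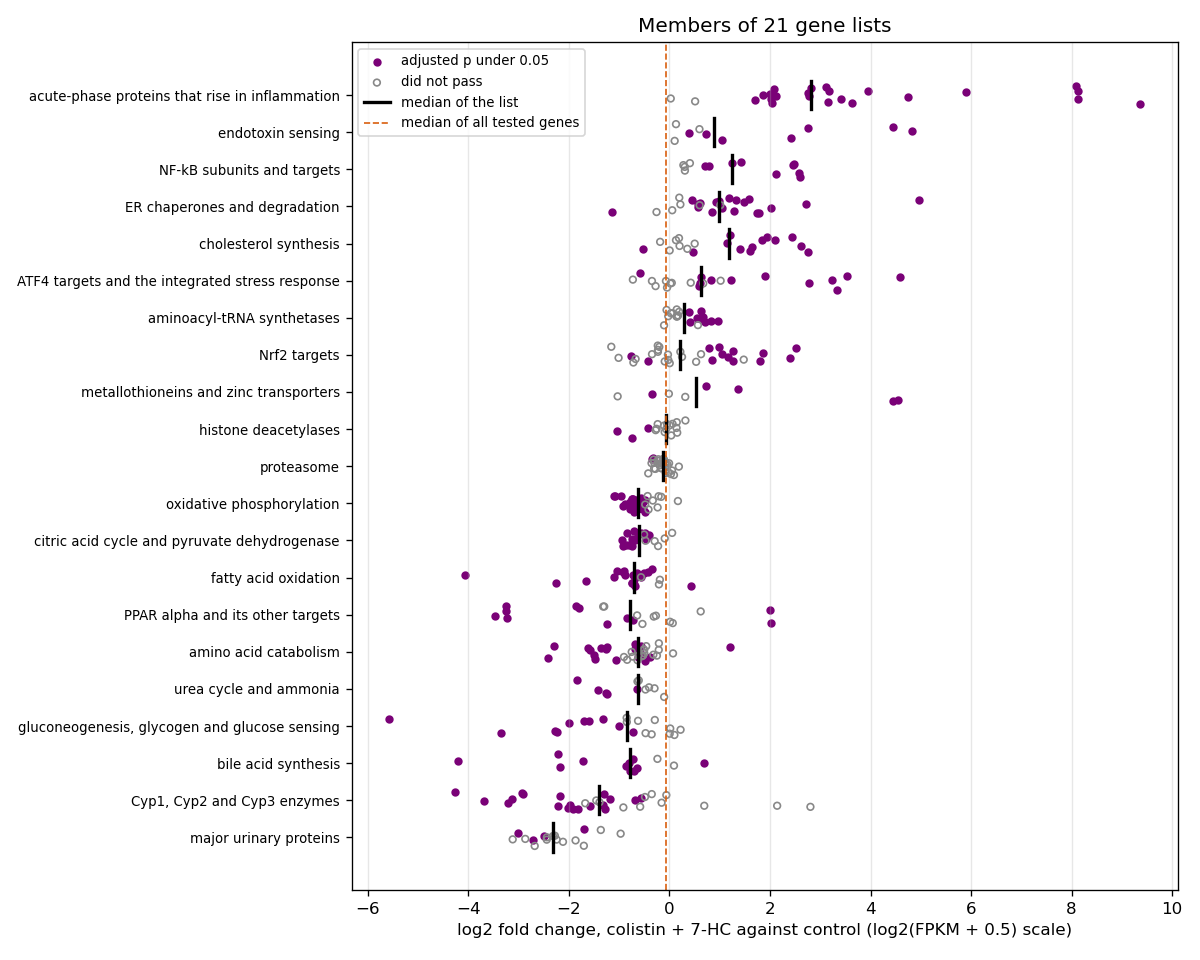
Log2 fold change for colistin + 7-HC against control of each tested member of 21 gene lists (filled points, adjusted p under 0.05; open points, did not pass), with the median of each list as a black bar and that of all tested genes (-0.06) as a dashed line. Points of a list are spread vertically only for legibility. The acute-phase list lies furthest to the right (median 2.81) and the major urinary proteins furthest to the left (median -2.32).

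The largest falls were of metabolic enzymes. Car3 (chr3:14863538-14872381), which encodes carbonic anhydrase 3, stood at 2017, 1772 and 952 FPKM in control and at 3.06, 4.98 and 30.4 FPKM in colistin + 7-HC (log2 fold change -7.48, SE 0.80, adjusted p = 8.42e-05 by limma), and replicate 3 of colistin + 7-HC stood well above the other 2. Hsd3b5, a hydroxysteroid dehydrogenase known from the liver of male mice, stood at 48.4, 109 and 22.5 FPKM and 0.03, 0.03 and 0.09 FPKM (log2 fold change -6.50, SE 0.41, adjusted p = 1.92e-06 by limma). The related Hsd3b2 and Hsd3b3 fell by 4.89 and 3.86 on the log2 scale, and the members of this family are close copies, so reads may be assigned to the wrong one. G6pc (chr11:101367716-101377903), which encodes the catalytic subunit of glucose-6-phosphatase, the last step of glucose release, stood at 259, 135 and 60.7 FPKM and 3.25, 2.04 and 1.58 FPKM (log2 fold change -5.58, SE 0.56, adjusted p = 5.15e-05 by limma). Inmt, a methyltransferase of indolamines, stood at 846, 373 and 658 FPKM and 9.57, 20.9 and 36.6 FPKM (log2 fold change -4.89, SE 0.61, adjusted p = 0.000225 by limma). For each of these genes the highest colistin + 7-HC library lay below the lowest control library, but the rule that chose the largest falls asked for this.

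Of 31 cytochrome P450 genes of the Cyp1, Cyp2 and Cyp3 families 19 fell and 0 rose, where 15.8% of all tested genes fell, with a median of -1.39. Cyp3a11, a main drug-metabolizing enzyme of mouse liver, stood at 4967, 4065 and 7856 FPKM in control and at 415, 329 and 529 FPKM in colistin + 7-HC (log2 fold change -3.70, SE 0.33, adjusted p = 2.42e-05 by limma). Cyp2c29 stood at 482, 378 and 864 FPKM and 21.5, 28.6 and 34.6 FPKM (log2 fold change -4.26, SE 0.36, adjusted p = 1.65e-05 by limma), and Cyp2e1, which oxidizes ethanol, at 5566, 5936 and 7021 FPKM and 1424, 1708 and 2197 FPKM (log2 fold change -1.81, SE 0.28, adjusted p = 0.000866 by limma). Cyp2a4 and Cyp2a5 had log2 fold changes of 2.80 and 2.14, the other way, and did not pass. Of 20 glucuronosyltransferase and sulfotransferase genes 9 fell and 2 rose, and Ugt3a1 fell most (log2 fold change -3.14, SE 0.42, adjusted p = 0.000396 by limma).

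In bile acid synthesis 10 of 13 genes fell and 1 rose (median -0.78). Cyp7a1, the rate-limiting enzyme of bile acid synthesis, stood at 21.1, 27.4 and 56.99 FPKM in control and at 0.83, 0.79 and 2.75 FPKM in colistin + 7-HC (log2 fold change -4.20, SE 0.91, adjusted p = 0.00615 by limma). Nr0b2, which encodes SHP, a nuclear receptor known to repress Cyp7a1, also fell, from 65, 23.2 and 53.5 FPKM to 8.93, 7.62 and 11.2 FPKM (log2 fold change -2.18, SE 0.38, adjusted p = 0.00177 by limma). Slc10a1, the sodium-dependent bile acid importer NTCP, stood at 667, 610.2 and 769 FPKM and 226, 190.2 and 233 FPKM (log2 fold change -1.65, SE 0.28, adjusted p = 0.00162 by limma). All 3 were lower in every colistin + 7-HC library, which for Cyp7a1 was asked by the rule that chose the largest falls. Of 16 transporter genes for bile acids and organic ions 7 fell and 1 rose, and 4 fell without colistin + 7-HC replicate 2.

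Genes of energy metabolism fell by smaller amounts and in larger numbers. Of 38 oxidative phosphorylation genes 30 fell and 0 rose, with a median of -0.63. Cyc1, cytochrome c1 of complex III, stood at 172, 168 and 181 FPKM in control and at 70.5, 81.2 and 91.01 FPKM in colistin + 7-HC (log2 fold change -1.10, SE 0.12, adjusted p = 0.000108 by limma), which was the largest fall of the list. Cox5a, of complex IV, and Sdhd, of complex II, fell by 1.08 and 0.96 on the log2 scale. In the citric acid cycle list 14 of 20 fell and 0 rose (median -0.60). Of 23 fatty acid oxidation genes 19 fell and 1 rose (median -0.71). Acaa2, the mitochondrial thiolase, stood at 431, 386 and 388 FPKM and 122, 116 and 141 FPKM (log2 fold change -1.67, SE 0.11, adjusted p = 3.24e-06 by limma), and the peroxisomal thiolase Acaa1b at 563, 353 and 347 FPKM and 25.1, 13.8 and 40.2 FPKM (log2 fold change -4.06, SE 0.52, adjusted p = 0.000274 by limma). Acaa1a, a close copy of Acaa1b, was the 1 gene that rose (0.42). Cpt1a, the entry enzyme of mitochondrial oxidation, did not pass (-0.19).

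Of 20 further PPAR alpha genes 9 fell and 2 rose. Acot1, an acyl-CoA thioesterase, stood at 10.1, 11.8 and 12.4 FPKM in control and at 0.51, 0.76 and 1.03 FPKM in colistin + 7-HC (log2 fold change -3.25, SE 0.20, adjusted p = 1.82e-06 by limma), and Cyp4a14, a fatty acid hydroxylase, at 367, 383 and 332 FPKM and 55.9, 25.2 and 23.1 FPKM (log2 fold change -3.47, SE 0.37, adjusted p = 7.90e-05 by limma). The rises were of Fgf21, a hormone of the fasted liver (log2 fold change 2.02, SE 0.48, adjusted p = 0.00986 by limma), and Plin2, a coat protein of lipid droplets (log2 fold change 2.002, SE 0.31, adjusted p = 0.00098 by limma). Ppara itself did not pass (-0.27). In the gluconeogenesis and glycogen list 10 of 20 fell and 0 rose (median -0.85). Besides G6pc, described above, Gpd1, glycerol-3-phosphate dehydrogenase, and Ppp1r3b, a glycogen-targeting phosphatase subunit, fell by 2.29 and 2.25 on the log2 scale. Of 36 genes of amino acid catabolism 18 fell and 1 rose, and 11 fell without control replicate 1. Of 11 urea cycle and ammonia genes 5 fell, among them Ass1, argininosuccinate synthetase (log2 fold change -1.85, SE 0.44, adjusted p = 0.00982 by limma), and 2 fell without control replicate 2 or colistin + 7-HC replicate 1, and 3 without control replicate 1, control replicate 3 or colistin + 7-HC replicate 2.

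In the growth hormone and IGF list 6 of 13 fell and 0 rose, and 3 fell without colistin + 7-HC replicate 2. Ghr, the growth hormone receptor, stood at 190.1, 203 and 176 FPKM in control and at 72.1, 64.3 and 74.5 FPKM in colistin + 7-HC (log2 fold change -1.43, SE 0.13, adjusted p = 2.54e-05 by limma). The major urinary protein genes, pheromone carriers known to depend on growth hormone, had the lowest median of any list, -2.32, but only 4 of 17 passed. The summed level of the list's 22 genes was 7528 to 43201 FPKM in control and 2286 to 7403 FPKM in colistin + 7-HC. Control replicate 3 was the low control library, for example at 4205, 5157 and 709.8 FPKM for Mup9 in the 3 control libraries and 697, 164 and 477 FPKM in colistin + 7-HC, and without it 13 of the 17 fell. As few as 1 fell without control replicate 2 or colistin + 7-HC replicate 2, and 2 without control replicate 1, colistin + 7-HC replicate 1 or colistin + 7-HC replicate 3. The major urinary protein genes are near-identical, so single members are uncertain. Of 16 clock genes 5 fell and 0 rose, and Per2 stood at 8.51, 8.69 and 7.81 FPKM and 1.92, 2.63 and 4.67 FPKM (log2 fold change -1.38, SE 0.35, adjusted p = 0.0142 by limma). Without colistin + 7-HC replicate 1 or 2, 3 clock genes fell.

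Redox and histone deacetylase genes that the study followed were mixed. Nfe2l2, which encodes the transcription factor Nrf2, stood at 25.6, 24.3 and 24.5 FPKM in control and at 13.97, 10.1 and 13 FPKM in colistin + 7-HC (log2 fold change -0.99, SE 0.19, adjusted p = 0.00272 by limma). Hmox1, heme oxygenase 1, a target of Nrf2, stood at 13.9, 16.5 and 14.9 FPKM and 110, 52.5 and 119 FPKM (log2 fold change 2.51, SE 0.28, adjusted p = 0.000104 by limma). The groups did not overlap in either, with Nfe2l2 lower and Hmox1 higher. Of 31 Nrf2 targets 11 rose and 2 fell (median 0.22), among the risers Nqo1, a quinone reductase (log2 fold change 1.81, SE 0.23, adjusted p = 0.000232 by limma), and Srxn1, sulfiredoxin (log2 fold change 1.87, SE 0.24, adjusted p = 0.000307 by limma). The 2 falls were 0 without control replicate 1 or colistin + 7-HC replicate 2, 1 without control replicate 2, control replicate 3 or colistin + 7-HC replicate 1, and 5 without colistin replicate 2, which enters through the pooled error. Keap1, which holds Nrf2 in the cytosol, had a log2 fold change of 0.20 (95% interval -0.05 to 0.45) and did not pass.

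Cat, catalase, stood at 1378, 1289.5 and 1368 FPKM in control and at 609.5, 515 and 669 FPKM in colistin + 7-HC (log2 fold change -1.18, SE 0.25, adjusted p = 0.00598 by limma). Sod2, the mitochondrial superoxide dismutase, rose from 50.6, 47.3 and 51.9 FPKM to 131, 121 and 112 FPKM (log2 fold change 1.27, SE 0.17, adjusted p = 0.000377 by limma). Sod1, the cytosolic enzyme, had overlapping groups and a log2 fold change of -0.17 (95% interval -0.54 to 0.20). Hdac1, a class I histone deacetylase, stood at 8.89, 9.03 and 10.5 FPKM and 9.13, 8.68 and 10.7 FPKM, groups that overlapped, with a log2 fold change of 0.00 (95% interval -0.26 to 0.27). Of 17 histone deacetylase and sirtuin genes 3 fell, Hdac11 (-1.04), Sirt3 (-0.75) and Sirt7 (-0.43), beside 15.8% of all tested genes, and the call of Sirt7 was lost without control replicate 1 or 3 or colistin + 7-HC replicate 1 or 2. Actb, the cytoskeletal actin often used as a reference, had a log2 fold change of 0.00 (95% interval -0.43 to 0.43).

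Of 28 genes of cell death 7 rose and 3 fell, where 10.7% of all tested genes rose and 15.8% fell. Bid, which links death receptors to mitochondria, stood at 3.76, 2.81 and 3.34 FPKM in control and at 11.7, 10.1 and 12.2 FPKM in colistin + 7-HC (log2 fold change 1.64, SE 0.12, adjusted p = 7.29e-06 by limma), with every colistin + 7-HC library above every control library. Casp9, the initiator caspase of the mitochondrial pathway, did not pass (-0.25, 95% interval -0.62 to 0.12). Gsdmd, which forms the pores of pyroptosis, and Mlkl, which acts in necroptosis, rose by 1.41 and 1.39 on the log2 scale. Of 16 kidney injury markers 4 rose and 2 fell, with Lcn2 and Gdf15 (1.91) the largest rises and Havcr1, which encodes KIM-1, under the filter.

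The single treatments stand beside the combined one as follows, with the same genes and the same fit. They share the control libraries with it, and colistin + 7-HC against colistin shares the colistin + 7-HC libraries. Colistin alone against control gave 3427 genes (33% of those tested), with 1303 higher (12.6%) and 2124 lower (20.5%). 7-HC alone against control gave 21 genes (0.202%), with 9 higher (0.0868%) and 12 lower (0.116%), and 985 genes (9.5%) at an unadjusted p under 0.05. Colistin + 7-HC against colistin gave 1 gene (0.00964%), and 1296 genes (12.5%) at an unadjusted p under 0.05. Without colistin replicate 2 this last comparison gave 461 genes, 326 higher and 135 lower, and without colistin replicate 1 or 3 it gave 1 gene. Pearson's r between colistin libraries was 0.956 to 0.978. Over the 2746 genes that passed in colistin + 7-HC against control, the 95% interval of the difference from colistin alone had a median half-width of 0.37 on the log2 scale, which limits the size of difference that this comparison could show.

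In the gene lists, the median for colistin + 7-HC against control was 2.81 for the acute-phase genes, beside 3.07 for colistin alone and -0.44 for 7-HC alone. For the ER genes the medians were 0.99, 1.505 and -0.38. For cholesterol synthesis they were 1.18, 1.46 and 0.47. For the cytochrome P450 genes they were -1.39, -2.05 and -0.02. For oxidative phosphorylation they were -0.63, -0.72 and 0.12. In each of these 5 lists the combined median lay on the side of colistin alone and nearer to 0. This did not hold for every list: for fatty acid oxidation the medians were -0.71, -0.67 and 0.17, for apolipoproteins -0.56, -0.29 and -0.02, and for the IL-6 and STAT3 list 1.08, 0.86 and -0.17. In none of these 8 lists did a gene differ between colistin + 7-HC and colistin at the adjusted threshold. For translocon and vesicle coat genes the medians were 0.36 and 0.75, with 9 and 21 of 31 genes rising, and the 9 were 4 without colistin + 7-HC replicate 2, 5 without any 1 of the control libraries and 18 when only the libraries of the 2 groups were fitted.

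The 1 gene that differed from colistin alone was Bex2 (chrX:136066565-136068236), which encodes a brain-expressed X-linked protein. It stood at 0.07, 0 and 0.14 FPKM in control, 0.13, 0.06 and 0 FPKM in 7-HC, 1.08, 1.44 and 1.74 FPKM in colistin and 5.24, 6.17 and 6.23 FPKM in colistin + 7-HC. The highest libraries were the 3 with both compounds, none of which overlapped another group. That they lay above control was fixed by the filter, which Bex2 passed only through the colistin + 7-HC group. The log2 fold change was 3.49 against control (SE 0.17, adjusted p = 4.82e-07 by limma) and 1.74 against colistin (SE 0.17, adjusted p = 0.0033 by limma). The largest difference from colistin among the leading falls was that of G6pc, at 7.34, 31.7 and 9.79 FPKM in colistin and 261, 180.4 and 306 FPKM in 7-HC. Every colistin + 7-HC library was below every colistin library for G6pc, but the difference of -2.34 on the log2 scale (95% interval -3.56 to -1.13) did not pass adjustment (adjusted p = 0.165 by limma). Cyp3a11 stood at 152, 240.4 and 103 FPKM in colistin, below its level with both compounds, and this difference of 1.42 (95% interval 0.70 to 2.14) did not pass either (adjusted p = 0.159 by limma). Hmox1 stood at 179, 228 and 133 FPKM in colistin, and the difference was -0.99 (95% interval -1.59 to -0.38, adjusted p = 0.211 by limma).

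A few genes were raised by 7-HC alone as well. Mt2 and Mt1 encode metallothioneins, which bind zinc and copper. Mt2 stood at 249, 184 and 185 FPKM in control, 668, 955 and 794 FPKM in 7-HC, 5992, 4338 and 6394 FPKM in colistin and 4016, 6313 and 4226 FPKM in colistin + 7-HC. The 7-HC libraries lay between control and the other 2 groups, which overlapped. The log2 fold changes against control were 1.97 for 7-HC (adjusted p = 0.00704 by limma), 4.75 for colistin and 4.54 for both (adjusted p = 5.16e-07 by limma). Mt1 followed with log2 fold changes of 2.18, 4.77 and 4.45. In the other direction, Hsd3b5 was lower with 7-HC alone than in control (log2 fold change -3.94, adjusted p = 0.00389 by limma), at 2.44, 2.44 and 3.40 FPKM.

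**Figure D4:**
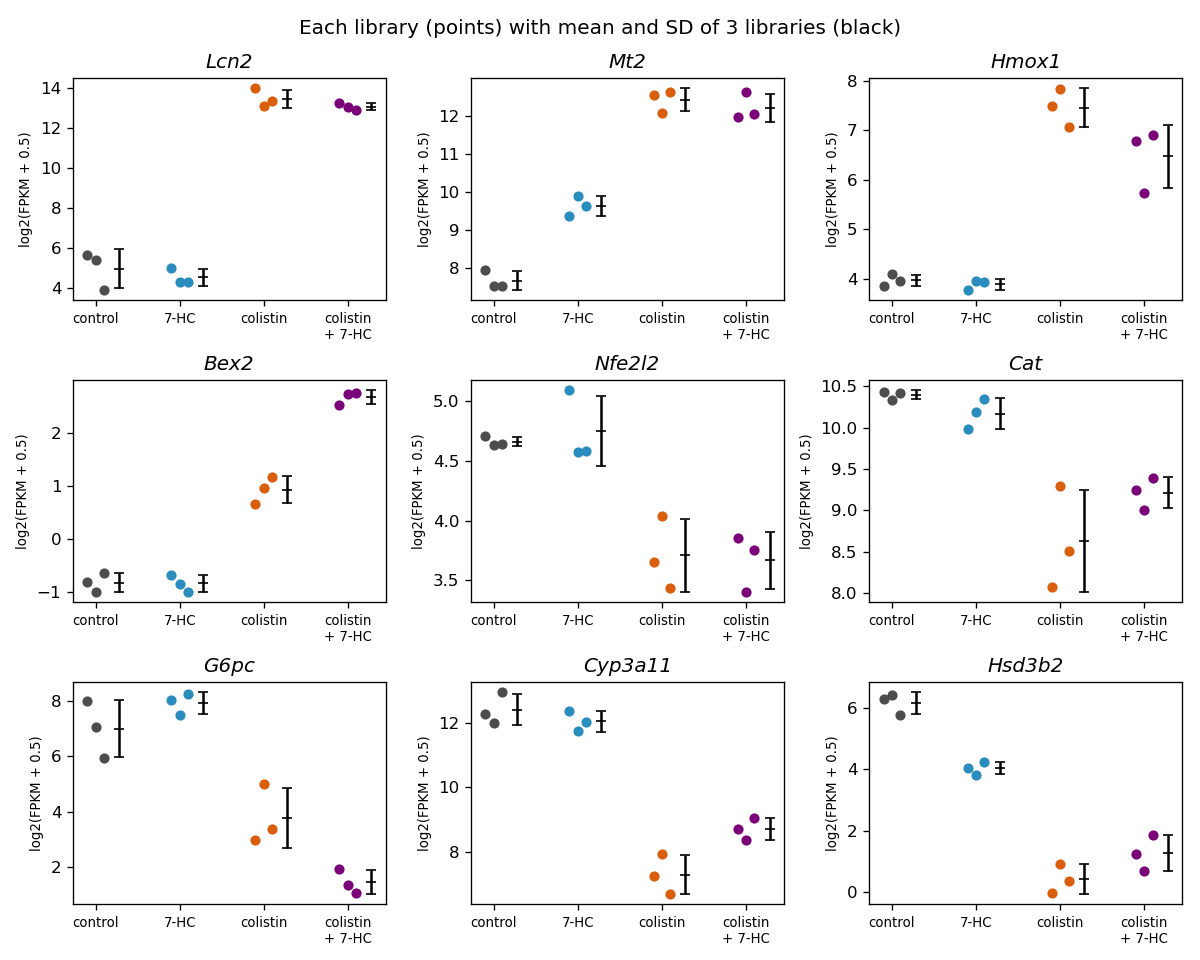
Log2(FPKM + 0.5) of 9 genes in each of the 12 libraries (points), with the mean and SD of the 3 libraries of a group in black; the y axes differ between panels and do not start at 0. Bex2 is highest with both compounds, Mt2 is raised by 7-HC alone as well, and G6pc is lowest with both compounds.

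Over the 2746 genes the median absolute difference from the control mean was 0.756 in colistin + 7-HC replicate 1, 0.789 in replicate 2 and 0.705 in replicate 3 on the log2 scale. These genes were called from the same 3 libraries, which favours genes that changed alike in all 3. The values therefore cannot show whether the libraries were changed to similar extents. Among the genes that passed, the most variable within colistin + 7-HC by coefficient of variation were Car3, Hao2, Slc22a27 and Gstp3. Gstp3, a glutathione S-transferase, stood at 22.99, 32.3 and 19.9 FPKM in control and at 67.3, 428 and 96.8 FPKM in colistin + 7-HC (log2 fold change 2.50, SE 0.53, adjusted p = 0.0055 by limma), with replicate 2 far above the others. Hao2, a peroxisomal hydroxyacid oxidase, stood at 7.31, 1.86 and 3.66 FPKM and 0.03, 0.25 and 0.04 FPKM (log2 fold change -2.83, SE 0.51, adjusted p = 0.00219 by limma). The least variable were Arrdc2, Phax, Man2b2 and Borcs7, whose 3 values differed little, for example 7.14, 7.14 and 7.12 FPKM for Borcs7, a subunit of the lysosome-positioning complex BORC, against 4.11, 3.09 and 3.48 FPKM in control (log2 fold change 0.92, SE 0.14, adjusted p = 0.000896 by limma). Of these 4, the calls of Arrdc2, Phax and Man2b2 were lost when libraries were left out.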

How the data were processed

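RNA of 12 libraries, 3 in each of 4 groups, was sequenced on the BGISEQ-500. Per the methods and the labels, the authors aligned reads with HISAT2 2.0.4 and Bowtie2 2.2.5 (build GRCm38.p6), quantified genes with RSEM 1.2.12 and tested them with DESeq2 1.4.5. The deposited table holds FPKM, a unit taken from the values since the table does not state it, so FPKM is not a count and no count test was run. The number of reads is not given there and relative depth could not be read from the low values, so no interval or floor from counting is given. Of 22899 genes listed, 5161 were blank. RefSeq matched 21633 identifiers.

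Genes at 1 FPKM or more in 3 of the 6 libraries were kept. log2(FPKM + 0.5) of all 12 libraries was fitted with limma 3.58.1 (R 4.3.3), with a term per group, a mean-variance trend and Benjamini-Hochberg adjustment over the 10373 genes. Fold changes are on this scale, which understates those of low genes. An exact permutation test of 3 against 3 libraries cannot go below p = 0.1. The fit was tested on simulated data. Replicate numbers did not pair the libraries. Scaling, filter, pseudocount, test, block and left-out libraries were varied, as was, after seeing the data, the left-out colistin library.

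Named genes were the 12 largest rises and falls, the 4 largest of each among abundant genes, up to 4 passing members of each of 66 lists, the genes the study followed, the gene that differed from colistin, and the 4 most and least variable. Other genes, named as exceptions, as sole members of a count, as members that did not pass or for a motif, were chosen after their values were seen, and some genes are not reported here. The members and lists were chosen with earlier results of these data known.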

Additional observations from a re-analysis of the deposited data

Results flagged for a closer look

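In 7 of the genes named by rule, the effect of 7-HC differed with and without colistin by limma's interaction term, among 30 of the 10373 genes tested (0.289%). The interaction is the log2 fold change of colistin + 7-HC against colistin less that of 7-HC against control, and it shares libraries with the comparisons above. It was 1.76 for Bex2 (adjusted p = 0.0289 by limma), which was raised with both compounds beyond colistin alone. It was 2.98 for Hsd3b2 (adjusted p = 0.0289 by limma) and 3.88 for Hsd3b5 (adjusted p = 0.0332 by limma), both lower with 7-HC alone and near 0 FPKM in the groups with colistin. At values near 0 a further fall with 7-HC could hardly show. For both genes a changed effect of 7-HC and this floor cannot be told apart. The interaction was -2.50 for Mt1 (adjusted p = 0.0385 by limma) and -2.18 for Mt2 (adjusted p = 0.0332 by limma), both higher with 7-HC alone. It was -4.15 for Nnmt, a nicotinamide methyltransferase (adjusted p = 0.0443 by limma), which stood at 1.31, 2.33 and 1.24 FPKM in control, 28.1, 15.8 and 5.45 FPKM in 7-HC, 67.9, 48.7 and 75.8 FPKM in colistin and 12.7, 37.6 and 28.02 FPKM in colistin + 7-HC. It was -1.50 for Ppp1r3b, a glycogen-targeting phosphatase subunit (adjusted p = 0.0443 by limma), which stood at 20.5, 18.4 and 19.6, 23.02, 33.7 and 34.2, 7.49, 8.34 and 6.38 and 4.64, 3.14 and 3.50 FPKM in the same order of groups. Groups of 3 were not searched for single outlying libraries.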

How the results depend on the processing

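No gene that passed in colistin + 7-HC against control changed sign under any of the 15 alternatives run for it. In 2723 of these genes the groups did not overlap, so leaving out a library could not reverse their sign. The absence of sign changes was therefore largely fixed by the selection. The 2746 genes ranged from 1748 (without colistin + 7-HC replicate 2) to 3024 (without colistin replicate 2) on leaving out a library, and the 379 genes at 2-fold and an adjusted p of 0.001 from 170 to 520, with 170 without control replicate 1, 220 without control replicate 2, and 190, 178 and 231 without colistin + 7-HC replicates 1, 2 and 3. The other settings gave 2437 to 3351 genes and 253 to 382. With the replicate number as a block, 2457 and 253 genes passed, and 2392 of the 2746 were among the 2457. Residuals of same-numbered control and colistin + 7-HC libraries correlated at r = -0.057, -0.114 and -0.008. Those of differently numbered libraries of these groups correlated at r from -0.207 to 0.277. Same numbers thus showed no pairing between these groups, and a batch shared under other numbers was not tested. Colistin + 7-HC against colistin gave 1 gene, against 3 with no filter, 0 with 1 FPKM in all 6 libraries, 0 with a pseudocount of 0.1, 0 with only the libraries of the 2 groups, and 461 without colistin replicate 2, but 1 without colistin replicate 1 or 3, a choice added after seeing the data; the cause was not tested. The log2 fold changes of Actb and Hdac1, both 0.00, changed sign on leaving out libraries: Actb ranged from -0.086 (without control replicate 3; -0.019 without colistin + 7-HC replicate 2) to 0.060, and Hdac1 from -0.080 (without colistin + 7-HC replicate 3; -0.037 and -0.026 without control replicates 1 and 2) to 0.075. Of the 220 genes named by rule, 8 lost their call with the block and 46 without colistin + 7-HC replicate 2. With no depth given, low genes such as Bex2, Phgdh and Hsd3b5 rest on values near 0 whose counting error is unknown.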

Other observations

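Lists that have no paragraph above gave the following, where 10.7% of all tested genes rose and 15.8% fell. The falls of the iron and heme, chemokine, antigen presentation and autophagy lists lay near or under that share. In iron and heme handling 8 of 21 genes rose and 2 fell, led by Steap4, a metalloreductase, at 27.1, 23.96 and 22.02 FPKM in control and 596, 583 and 509.9 FPKM in colistin + 7-HC (log2 fold change 4.50, SE 0.36, adjusted p = 1.15e-05 by limma). Of 11 chemokines 4 rose and 2 fell, and Cxcl1, which draws neutrophils, stood at 9.30, 3.94 and 8.52 FPKM and 125, 211 and 162 FPKM (log2 fold change 4.47, SE 0.53, adjusted p = 0.000163 by limma). In antigen presentation 4 of 12 rose and 2 fell, the class II genes H2-Aa and H2-Ab1 falling by 1.26 and 1.21 on the log2 scale. Of 16 apolipoprotein genes 7 fell and 0 rose, with 4 falling without control replicate 1, control replicate 2 or colistin + 7-HC replicate 1, and 2 without colistin + 7-HC replicate 2. In the methylation cycle 4 of 12 fell and 1 rose, with 2 falling without control replicate 1 or 3 or colistin + 7-HC replicate 1 or 2, and the riser being Nnmt (log2 fold change 3.55, SE 0.51, adjusted p = 0.000593 by limma). In autophagy and lysosome 7 of 25 rose and 3 fell, with 1 falling without control replicate 1 or 3 and 0 without colistin + 7-HC replicate 2, and with Map1lc3b, which encodes LC3B, the largest rise (log2 fold change 1.09, SE 0.12, adjusted p = 0.000108 by limma).

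Of 13 immediate early genes 2 rose and 3 fell, beside 10.7% and 15.8% of all tested genes, and the 2 rises were 1 without control replicate 2 and 0 without colistin + 7-HC replicate 2. Dusp1, a phosphatase of MAP kinases, stood at 44.1, 48.9 and 22.4 FPKM in control and 2.24, 4.67 and 4.84 FPKM in colistin + 7-HC (log2 fold change -3.13, SE 0.55, adjusted p = 0.00186 by limma). Of 10 replication and mitosis genes 3 fell and 0 rose, among them Ccnd1, which encodes cyclin D1 (log2 fold change -2.21, SE 0.41, adjusted p = 0.00252 by limma). Of 11 genes known to be higher in the liver of male mice 6 fell and 0 rose, and of 12 known to be higher in females 3 fell and 1 rose, where 15.8% of all tested genes fell. The 6 falls were 3 without control replicate 2 or colistin + 7-HC replicate 2. The 3 falls among the female genes were 5 without control replicate 2 and 0 when 1 FPKM was asked of all 6 libraries, and the riser, Fmo2, lost its call without any 1 of the 6. In superoxide, peroxide and thioredoxin enzymes 3 of 17 rose and 5 fell. Of 9 sinusoidal endothelial markers 3 fell, and 1 without control replicate 2 or colistin + 7-HC replicate 2. Of 10 stellate cell markers 2 fell, near the 15.8% of all genes, and 0 without control replicate 2 or colistin + 7-HC replicate 1 or 2, 1 without control replicate 1 and 4 without colistin + 7-HC replicate 3.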
